A study of Mus musculus with 8 samples.

Results

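All 4 arrays labelled IRAK4 KI were set against all 4 arrays labelled wild type, with treatment as a covariate, and the genes that differed by genotype in both treatments are described. These 8 arrays are all 8 arrays of the series, in 4 groups of 2. The labels describe macrophages grown for 5 days in L929-conditioned medium from bone marrow of female 129/BL6 mice, with no age given. One wild type group had no treatment and the other had acetylated low-density lipoprotein (acLDL) at 100 ug/ml for 24 hours. The 2 KI groups, whose mice carry an IRAK4 allele with an inactive kinase, were treated in the same 2 ways. Biotin-labelled RNA from each sample was read on 1 Illumina mouse beadchip. The labels do not state whether both samples of a group had separate animals or cultures as their source. The p-values below therefore measure the spread between samples only, and part or all of it may be technical.

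IRAK4 is the kinase that Toll-like and interleukin-1 receptors recruit through the adaptor MyD88. It activates the related kinases IRAK1 and IRAK2 and, through TRAF6, NF-kB and MAP kinases. A kinase-inactive knock-in keeps the protein as a scaffold and removes its enzymatic activity. Macrophages depend on this pathway for inflammatory gene induction, and they take up acLDL through scavenger receptors.

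The arrays held transcripts that the labelled cell type does not make, such as surfactant genes, so wild type, KI, untreated and acLDL stand below for the labels of the arrays. Of 12 alveolar type II cell genes all 12 were above noise on all 8 arrays, as were 7 of 9 airway club and secretory genes with a probe and 11 of 12 endothelial genes. Of 17 macrophage identity genes with a probe, 12 were above noise on all 8 arrays, while Itgam, Fcgr1 and Cd163 were above noise on none. Noise here is a limit of 36.7 intensity units, which between 11026 and 11033 of 24613 probes exceeded on an array. Eif2s3y, a gene of the Y chromosome, was above noise on all 8 arrays (log2 intensity 8.35 to 9.004), Kdm5d on 3 and Uty on 0, in samples labelled female. Irak4 has no probe among those with a gene name here, so the genotype label was not checked on its transcript. Array-to-array correlations within the 4 groups lay between 0.982 and 0.986 across genes, and 7 of 8 arrays had an array of their own genotype as closest match. In bulk RNA, fewer cells of a type and less RNA per cell cannot be told apart.

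Of 10187 items tested (1 probe per gene, and each unnamed probe on its own), 365 differed between the genotypes over both treatments, which is 3.58% (limma, Benjamini-Hochberg adjusted p under 0.05). KI was higher for 132 of them (1.30% of items) and lower for 233 (2.29%). In all 365 the KI and wild type arrays did not overlap within the untreated arrays, nor within the acLDL arrays, and the order was the same in both. The choice of the 365 on these same arrays largely fixes that order, so it is no separate support. Such an order, at any p, was seen for 2265 items, or 22.2% (9.34% with KI higher and 12.9% with KI lower). The differences were small: their median size was 0.49 on the log2 scale (1.41-fold), 264 of 365 were under 1.5-fold and 6 exceeded 2-fold. Gene symbols were available for 311 of the 365, 106 higher and 205 lower, spread over 20 chromosomes.

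The 365 calls lay just inside the threshold, with adjusted p between 0.0411 and 0.04999, and 156 of them shared the lowest value. The count fell to 0 without either untreated wild type array, without acLDL wild type replicate 1, without either untreated KI array or without acLDL KI replicate 1, to 1 (Gatad2a) without acLDL KI replicate 2, and rose to 550 without acLDL wild type replicate 2. Without one of the 7 arrays that brought the count to 0 or 1, the highest adjusted p among the 365 lay between 0.0994 and 0.144. Each call named below was thus lost without any 1 of 6 arrays, and each but that of Gatad2a without acLDL KI replicate 2 as well. At the threshold, Pdpk1, the last inside, had a log2 difference of -0.42 and Flot2, the first outside, one of -0.34.

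**Figure D1:**
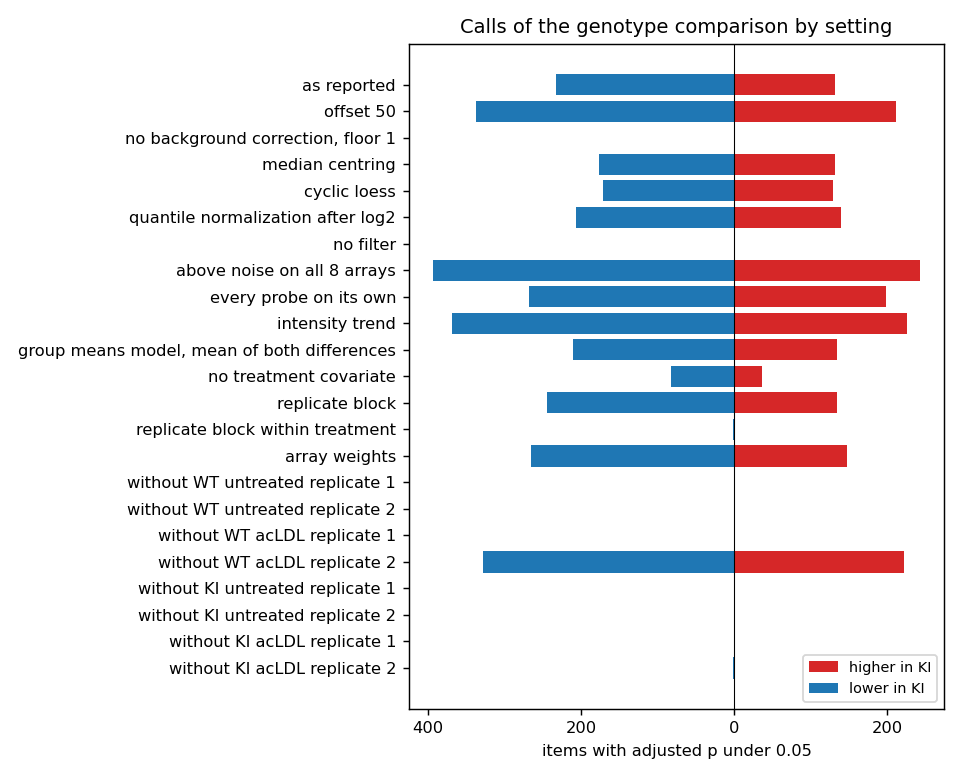
Number of items with adjusted p under 0.05 in the genotype comparison under each setting, lower in KI to the left of 0 (blue) and higher in KI to the right (red). The count was 365 as reported, 0 with uncorrected background and with unfiltered probes, and 0 or 1 without 7 of the 8 single arrays.

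The differences within untreated arrays and within acLDL arrays come from separate arrays. Across the 10187 items, which are not independent replicates, the 2 differences correlated at r = 0.39 (rho = 0.41), and 64.5% had the same sign. Among the lower members the median log2 difference was -0.49 in untreated and -0.52 in acLDL arrays, and among the higher members it was 0.45 and 0.52. Since the 365 were chosen on the average of these same 2 differences, their near equal medians follow in part from the choice. None of the 365, whose choice also favours equal differences, was called in the test of whether the genotype difference changed with treatment, which called 5 of 10187 items (0.0491%). These 5 were Baiap2l1, Col3a1, S100a8, Tm7sf3 and the unnamed probe ILMN_2696696, and all 5 had passed in the acLDL arrays. Within a single treatment few items passed. The untreated comparison called 1 (0.00982%), 1700029J07Rik, which is not among the 365. The acLDL comparison called 22 (0.216%), of which 5 are: Psmb1, Sgms1 and the unnamed probes ILMN_2695009, ILMN_1222500 and ILMN_1252295. Those 22 were chosen on acLDL arrays, and 18 of them had the same sign in the untreated arrays, where the median difference in the same direction was 0.23, against a median size of 1.25 in the acLDL arrays.

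**Figure D2:**
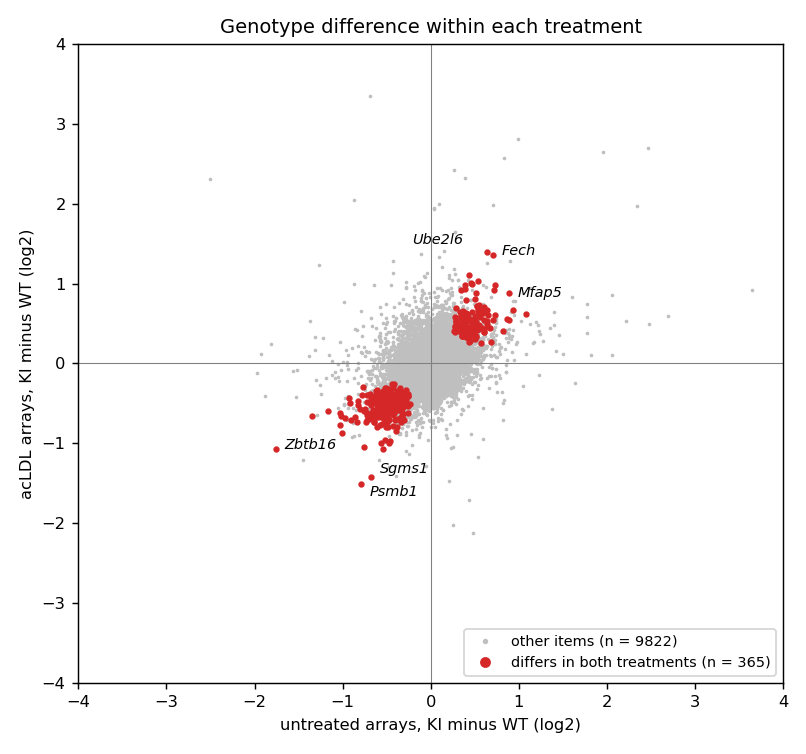
Log2 difference KI minus wild type in the untreated arrays (x axis) and in the acLDL arrays (y axis) for 10187 items, with the 365 items that differed in both treatments in red. The red points lie to the lower left and upper right of 0, and the items with the largest difference in a single treatment are not among them.

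Some members had a further probe that was not used to choose them. For 56 member genes, 67 such probes were above noise on at least 2 arrays. Of these, 48 (71.6%) had the same sign as the probe used, against 59.1% of 1565 further probes of the other genes. The median log2 difference of the 67 in the member's direction was 0.17, against 0.51 at the probes used. The further probes come from the same arrays that chose the members, so they bear on the probe and not on the samples. The other genes were not chosen for a difference, so the 2 shares are not like for like.

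The largest fitted fall among the 365 was that of Zbtb16. The gene, which encodes the zinc finger repressor PLZF, had log2 intensities of 8.11 and 7.09 in the untreated wild type arrays, 6.85 and 7.36 in the acLDL wild type arrays, 5.99 and 5.69 in the untreated KI arrays and 6.03 and 6.03 in the acLDL KI arrays. No KI array was above noise, and the 4 wild type arrays all lay higher. Zbtb16 was thus at least 2.02-fold lower in KI (wild type 7.35 ± 0.55, KI 5.93 ± 0.16, SD, n = 4 each, limma adjusted p = 0.0411). Gatad2a, a subunit of the NuRD chromatin remodelling complex, read 9.25, 9.40, 9.61 and 9.63 in wild type and 8.40, 8.24, 8.32 and 9.16 in KI. Its difference was -0.94 (SE 0.16, limma adjusted p = 0.0411), and acLDL KI replicate 2 lay nearest to wild type. Nfic, a nuclear factor I protein, was 1.84-fold lower (log2 difference -0.88, SE 0.18, limma adjusted p = 0.0458), but its other probe, above noise on all 8 arrays, had a difference of 0.11. Purb, a single-stranded DNA-binding protein gene, was 1.67-fold lower (-0.74, SE 0.12, limma adjusted p = 0.0411).

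Zc3h13, Arid5a and Prrc2a were lower in KI and Matr3 was higher. Zc3h13, part of the complex that methylates adenosine in mRNA, read 9.15, 9.21, 9.33 and 8.92 in wild type and 8.37, 8.50, 8.40 and 8.37 in KI. The genotypes did not overlap, and its difference was -0.74 in untreated and -0.74 in acLDL arrays (over both -0.74, SE 0.10, limma adjusted p = 0.0411). Another probe of Zc3h13, above noise on all 8 arrays, gave -0.12. Arid5a, which encodes a protein that stabilises inflammatory transcripts such as that of interleukin-6, was 1.66-fold lower (-0.73, SE 0.16, limma adjusted p = 0.0467). Prrc2a, an RNA-binding protein gene in the major histocompatibility region, was 1.64-fold lower (-0.71, SE 0.14, limma adjusted p = 0.0411). Matr3, a nuclear matrix protein that binds RNA, went the other way. It was above noise on 4 KI and 0 wild type arrays and at least 1.16-fold higher in KI (wild type 5.70 ± 0.40, KI 6.56 ± 0.10, SD, n = 4 each, limma adjusted p = 0.0411).

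Sgms1 was lower in KI, and Insig1, Pon1, Pik3c2a and Cav2 were higher. Sgms1, the Golgi enzyme that makes sphingomyelin from ceramide, had log2 intensities of 10.96 and 10.97 in the untreated wild type arrays, 11.61 and 11.23 in the acLDL wild type arrays, 10.36 and 10.22 in the untreated KI arrays and 10.23 and 9.77 in the acLDL KI arrays. Every KI array lay below every wild type array, and the gap was wider with acLDL (-1.42) than without (-0.67), a change that did not pass the test over all items (limma adjusted p = 0.555). Over both treatments Sgms1 was 2.07-fold lower in KI (-1.05, SE 0.17, limma adjusted p = 0.0411). Insig1, the membrane protein that holds the sterol sensor SCAP in the endoplasmic reticulum, was 1.58-fold higher. It read 6.86, 6.79, 6.56 and 6.88 in wild type and 7.45, 7.48, 7.25 and 7.53 in KI, with near equal differences of 0.64 untreated and 0.67 with acLDL (SE 0.10, limma adjusted p = 0.0411). A further Insig1 probe, above noise on 6 arrays, gave 0.46. Insig1 was the single call among 14 tested genes of cholesterol synthesis and uptake (7.14%, against 3.58% of all items), whose median was -0.04, against -0.02 over all items. Pon1, an esterase carried on high-density lipoprotein, was 1.74-fold higher (0.80, SE 0.15, limma adjusted p = 0.0411). Pik3c2a, a lipid kinase of endocytosis, was above noise on 3 KI and 0 wild type arrays, at least 1.08-fold higher (limma adjusted p = 0.0467). Cav2, a caveolin, was 1.57-fold higher (0.65, SE 0.11, limma adjusted p = 0.0411).

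Psmb1 and Psme4, both of the proteasome, differed in opposite directions. Psmb1, a catalytic-core subunit, read 10.20, 10.41, 9.79 and 10.43 in wild type and 9.40, 9.62, 8.62 and 8.56 in KI. KI was lower in every array and lowest with acLDL, and the difference was -1.16 over both treatments (2.23-fold lower, SE 0.18, limma adjusted p = 0.0411). Psme4, an activator that caps the core, read 8.09, 8.06, 8.02 and 8.30 in wild type and 8.78, 8.66, 8.72 and 8.80 in KI. Its 4 KI arrays lay within 0.15 of each other and all above wild type (1.54-fold higher, 0.62, SE 0.08, limma adjusted p = 0.0411). Ube2l6, the enzyme that conjugates the interferon-induced modifier ISG15, was 2.03-fold higher (1.02, SE 0.21, limma adjusted p = 0.0451), by 0.64 in untreated and 1.40 in acLDL arrays. Its other probe gave 1.22.

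Fech, the enzyme of the last step of heme synthesis, had the largest rise among the 365. Its log2 intensities were 6.51 and 6.51 in the untreated wild type arrays, 6.84 and 6.60 in the acLDL wild type arrays, 7.52 and 6.92 in the untreated KI arrays and 7.96 and 8.18 in the acLDL KI arrays. KI exceeded wild type in both treatments, by 0.71 and 1.35, and was 2.04-fold higher over both (1.03, SE 0.17, limma adjusted p = 0.0411). A second Fech probe, above noise on 7 arrays, gave 0.62. Red cell genes had a difference above 0 for 3 of 5 tested members (46.6% of all items were above 0), with a median of 0.72 and 0 called. That median was 0.26 in untreated and 1.18 in acLDL arrays. The other 2 members were below 0, and for 1 of them KI lay below wild type without overlap in both treatments. Slc4a1, the red cell anion exchanger, differed by 1.90 (SE 0.45, limma adjusted p = 0.0544) and Alas2, the first heme synthesis enzyme of red cells, by 0.95 (SE 0.28, limma adjusted p = 0.0863). The mean log2 intensity of the 5 lay between 11.47 and 12.36 in the wild type arrays and between 11.94 and 12.94 in the KI arrays. Gata1, Klf1, Epor and Ermap of that list were above noise on no array. The part of red cell RNA in the Fech difference was not tested.

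The other named rises were those of Mfap5, Gsn, Itgbl1, Pde4a, Suclg1 and Cdr2. Mfap5, a microfibril protein of elastic fibres, read 7.45, 7.89, 7.67 and 7.99 in wild type and 8.57, 8.53, 8.36 and 9.07 in KI, and differed by 0.88 untreated and 0.88 with acLDL (1.84-fold higher, SE 0.16, limma adjusted p = 0.0411). Gsn, the actin-severing protein gelsolin, was 1.64-fold higher (0.71, SE 0.12, limma adjusted p = 0.0411), and Itgbl1, a secreted protein related to integrin beta chains, 1.59-fold (0.67, SE 0.13, limma adjusted p = 0.0411). All 12 tested fibroblast and smooth muscle genes had a difference above 0 (median 0.40), as had 46.6% of all items. Of the 12, 0 were called and none separated the genotypes in both treatments. The mean of that list lay between 8.74 and 9.24 in the wild type arrays and between 9.31 and 9.59 in the KI arrays, and Col1a2, Cnn1 and Postn were above noise on no array. Its part in the rises of Mfap5, Gsn and Itgbl1 was not tested. Pde4a, which degrades cAMP, was 1.63-fold higher (0.70, SE 0.12, limma adjusted p = 0.0411), while another Pde4a probe, above noise on 7 arrays, gave 0.06. Suclg1, a subunit of a citric acid cycle enzyme, was 1.57-fold higher (0.65, SE 0.14, limma adjusted p = 0.0467), and Cdr2, a coiled-coil antigen of paraneoplastic disease, 1.56-fold (0.64, SE 0.10, limma adjusted p = 0.0411).

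**Figure D3:**
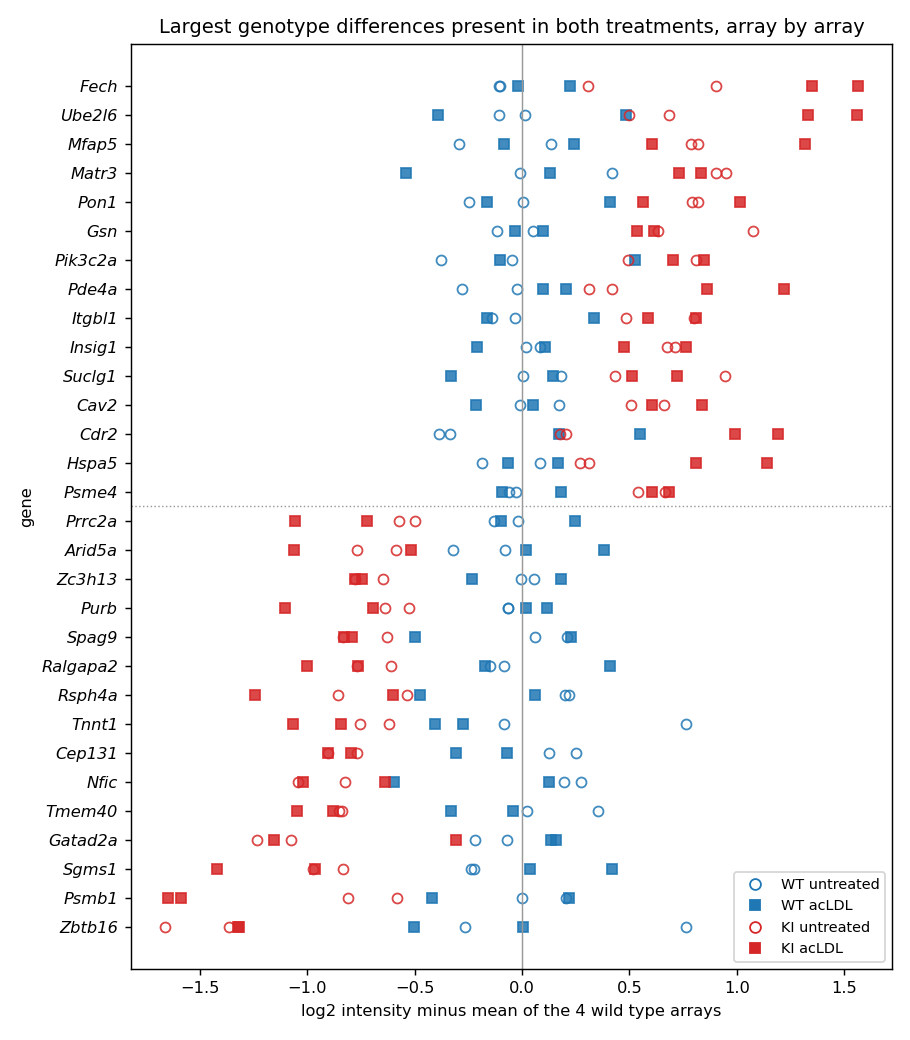
Log2 intensity of each array minus the mean of the 4 wild type arrays for the 15 genes with the largest rise and the 15 with the largest fall among those that differed in both treatments. Open circles are untreated and filled squares acLDL arrays, blue wild type and red KI. Within each treatment the red and blue marks do not overlap, by a margin that is narrow for Nfic and wide for Psme4 and Zbtb16.

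Genes of the unfolded protein response gave 2 calls, both higher, among 16 tested (12.5%, against 3.58% of all items, 1.30% higher; median 0.06, against -0.02 over all items). Hspa5, the main chaperone BiP of the endoplasmic reticulum, read 7.09, 6.82, 6.94 and 7.17 in wild type and 7.32, 7.27, 7.82 and 8.15 in KI, with the 2 acLDL KI arrays highest (1.55-fold higher, 0.63, SE 0.14, limma adjusted p = 0.0493). Creld2, an endoplasmic reticulum protein induced with BiP, read 9.37, 9.59, 9.70 and 10.04 in wild type and 9.94, 10.28, 10.36 and 10.29 in KI and was 1.46-fold higher (0.54, SE 0.11, limma adjusted p = 0.0458). The wild type and KI ranges of Creld2 overlap across treatments but not within one. The promoters of both genes hold the endoplasmic reticulum stress response element, which is CCAAT, any 9 bases and CCACG, and was searched on both strands. They are shown because both genes were called and hold the element, from 250 bases before to 50 after the gene start (RefSeq, GRCm38.p6, both genes on the + strand), with the element in capitals.
Hspa5 promoter, chr2:34771840-34772139: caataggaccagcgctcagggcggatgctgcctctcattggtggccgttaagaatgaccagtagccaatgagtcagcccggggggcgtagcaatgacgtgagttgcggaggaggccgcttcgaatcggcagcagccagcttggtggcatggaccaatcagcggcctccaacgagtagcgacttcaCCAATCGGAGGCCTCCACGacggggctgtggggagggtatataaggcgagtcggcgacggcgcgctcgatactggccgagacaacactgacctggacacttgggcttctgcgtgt
Creld2 promoter, chr15:88819396-88819695: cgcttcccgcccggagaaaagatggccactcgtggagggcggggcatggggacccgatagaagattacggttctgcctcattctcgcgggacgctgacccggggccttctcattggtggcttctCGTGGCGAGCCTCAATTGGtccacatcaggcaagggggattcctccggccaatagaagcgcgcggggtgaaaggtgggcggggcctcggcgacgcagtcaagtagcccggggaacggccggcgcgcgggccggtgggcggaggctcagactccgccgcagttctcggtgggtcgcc
In Creld2 the element lies on the opposite strand. It was found in 39 of 32851 RefSeq promoter windows (0.119%). Counted by gene, and so not like for like, it was found in 7 of 20 genes of the list that have a window. The other 4 of these 7 that were tested were not called: Dnajc3 had a log2 difference of -0.16, Canx one of -0.09, Pdia6 one of 0.09 and Hsp90b1 one of -0.02. A match describes these letters and does not show binding.

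The ciliated cell list held 2 calls. Of 10 tested ciliated cell genes, 2 were called lower and 0 higher (20% against 3.58% of all items), 9 had a difference below 0 (53.4% of all items) and the median was -0.47. Ccdc113, a coiled-coil protein of cilia, read 9.13, 9.12, 8.77 and 8.59 in wild type and 8.54, 8.45, 8.38 and 8.04 in KI. The genotypes were apart within each treatment, and acLDL arrays lay below untreated ones in both (1.46-fold lower, -0.55, SE 0.10, limma adjusted p = 0.0411). Rsph1, a radial spoke head protein, was 1.40-fold lower (-0.48, SE 0.11, limma adjusted p = 0.0467). Rsph4a, another radial spoke head gene that is not on the list, was among the 15 largest falls and read 9.12, 9.14, 8.98 and 8.45 in wild type and 8.39, 8.07, 8.32 and 7.68 in KI (1.75-fold lower, -0.81, SE 0.17, limma adjusted p = 0.0450). Cep131, a centriolar satellite protein needed for building cilia, read 7.90, 8.03, 7.71 and 7.47 in wild type and 7.01, 6.87, 6.98 and 6.87 in KI (1.79-fold lower, -0.84, SE 0.10, limma adjusted p = 0.0411). Odf3b, a relative of a sperm tail fibre protein, was 1.42-fold lower (-0.50, SE 0.11, limma adjusted p = 0.0458), and its other probe gave -0.42. Cep131 and Odf3b are not on the list either. Rsph4a and Cep131 were each named as 1 of the 15 largest falls and Odf3b as a call near Irak4. None of these adds support for the list. Dynlrb2, a dynein light chain, differed by -0.62 (SE 0.14, limma adjusted p = 0.0506), the tektins Tekt4 and Tekt1 had -0.53 and -0.48, and Foxj1, the regulator of motile cilia, had -0.47 (SE 0.16, limma adjusted p = 0.111), none of them called. The mean of the list lay between 8.52 and 8.76 in the wild type arrays and between 7.96 and 8.40 in the KI arrays, so the groups did not overlap. Dnah5, Ccdc40 and Sntn were above noise on no array. Whether the share of ciliated cells differed was not tested. Airway club and secretory genes were below 0 for 8 of 9 members (median -0.24) with 0 called. That median was -0.50 in untreated and -0.07 in acLDL arrays, and no member separated the genotypes in both treatments.

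The list of Toll-like and interleukin-1 receptor genes, in whose pathway IRAK4 acts, gave no call. Mapk14, a MAP kinase that is not on that list, was called higher in KI (0.42, SE 0.09, limma adjusted p = 0.0458). Of 19 tested Toll-like and interleukin-1 receptor pathway genes 9 had a difference above and 10 below 0, with a median of -0.0220, against -0.0173 over all items. Irak2, a kinase downstream of IRAK4, read 8.42, 8.56, 8.50 and 8.81 in wild type and 8.89, 9.01, 8.87 and 9.19 in KI, apart within each treatment, and differed by 0.42 (SE 0.10, limma adjusted p = 0.0605). Tollip, an adaptor that restrains this pathway, had -0.36 (SE 0.09, limma adjusted p = 0.0644), while another Tollip probe, above noise on all 8 arrays, gave 0.30. Myd88, Traf6 and Tlr4 had differences of 0.06, -0.13 and 0.04. NF-kB components had 0 of 14 called, at a median of 0.06, and Tnfaip3, an inhibitor of NF-kB, had -0.19 (SE 0.08, limma adjusted p = 0.155). Among 8 inflammatory cytokine genes tested, Cxcl1, a neutrophil-attracting chemokine, was the single call (12.5%, against 3.58% of all items). It read 7.58, 7.90, 8.03 and 8.06 in wild type and 7.30, 7.20, 7.63 and 7.46 in KI and was 1.41-fold lower in KI, by -0.49 untreated and -0.50 with acLDL (SE 0.09, limma adjusted p = 0.0411). Of the 20 cytokine genes with a probe, 12 were not above noise on 2 arrays and were not tested. Macrophage identity genes gave 0 calls among 14, with 7 above and 7 below 0. Their median was -0.16 in untreated and 0.21 in acLDL arrays. The interferon-stimulated gene Rsad2 differed by 1.70, which missed the threshold (SE 0.40, limma adjusted p = 0.0521).

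Single members of other lists were called. Nfe2l2, the transcription factor NRF2 of the antioxidant response, read 7.20, 7.16, 7.38 and 7.29 in wild type and 7.53, 7.95, 7.80 and 8.13 in KI and was 1.51-fold higher in KI (0.59, SE 0.11, limma adjusted p = 0.0411). Of 11 tested NRF2 response genes Tkt, the transketolase of the pentose phosphate pathway, was the other call (18.2% called, against 3.58% of all items) and was 1.38-fold lower (-0.47, SE 0.10, limma adjusted p = 0.0458), while Nqo1 had 0.29 and Hmox1 -0.28, neither called. Ctsd, the lysosomal protease cathepsin D, was 1.37-fold lower (-0.45, SE 0.09, limma adjusted p = 0.0458), the single call among 18 lysosomal genes (5.56%, against 3.58% of all items), whose median was -0.06. The remaining named falls were Tnnt1, the troponin T of slow muscle (1.77-fold lower, -0.82, SE 0.18, limma adjusted p = 0.0465), Ralgapa2, a GTPase-activating protein for Ral (1.72-fold, -0.78), Spag9, a scaffold of JNK signalling (1.71-fold, -0.77), and Tmem40, above noise on 4 wild type and 0 KI arrays and at least 1.33-fold lower. Another Spag9 probe, above noise on all 8 arrays, gave 0.06.

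Genes near Irak4 on chromosome 15 were counted because sequence that flanks a targeted allele is inherited with it, a part in these differences that was not tested. Within 5 Mb of Irak4 in the GRCm38.p6 gene table, 2 of 44 tested genes were called, both lower (4.55% against 3.58% of all items). Vdr, the vitamin D receptor, read 7.51, 7.34, 7.32 and 6.92 in wild type and 6.96, 6.60, 6.55 and 6.39 in KI and was 1.57-fold lower (-0.65, SE 0.12, limma adjusted p = 0.0411). Mcrs1, a nucleolar and chromatin protein, was 1.37-fold lower (-0.45, SE 0.08, limma adjusted p = 0.0411). Within 20 Mb, 5 genes were called lower and 1 higher of 261 (2.30%). Beyond Vdr and Mcrs1 these were Krt18, a keratin of simple epithelia (-0.53), Fam83h (-0.52) and the genes Odf3b and Creld2 described above. Of the 261, 175 had a difference below 0, against 53.4% of all items, and the median was -0.07 against -0.02.

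Lists of other tissues had large differences that did not pass. All 8 tested cardiac muscle genes were above 0 at a median of 0.96, and 8 of 10 adipocyte genes at 0.53. In either list 0 were called, and of all items 46.6% were above 0. The cardiac median was 1.41 in untreated and 0.43 in acLDL arrays, and the adipocyte median 1.16 and 0.10. Adipoq, a hormone of fat cells, read 6.92, 5.98, 6.72 and 8.79 in wild type and 8.76, 9.53, 8.02 and 8.68 in KI, so acLDL wild type replicate 2 lay among the KI arrays (1.64, SE 0.55, limma adjusted p = 0.110). Myl7, the atrial myosin light chain, was likewise highest in that wild type array, at 11.22, against 8.41 to 9.23 in the other wild type arrays (1.46, SE 0.49, limma adjusted p = 0.113). Clock genes had a median of -0.45 with 0 of 12 called, from 0.04 in untreated and -0.80 in acLDL arrays. Heat shock genes had medians of opposite sign, 0.80 untreated and -0.28 with acLDL, with 0 of 9 called.

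**Figure D4:**
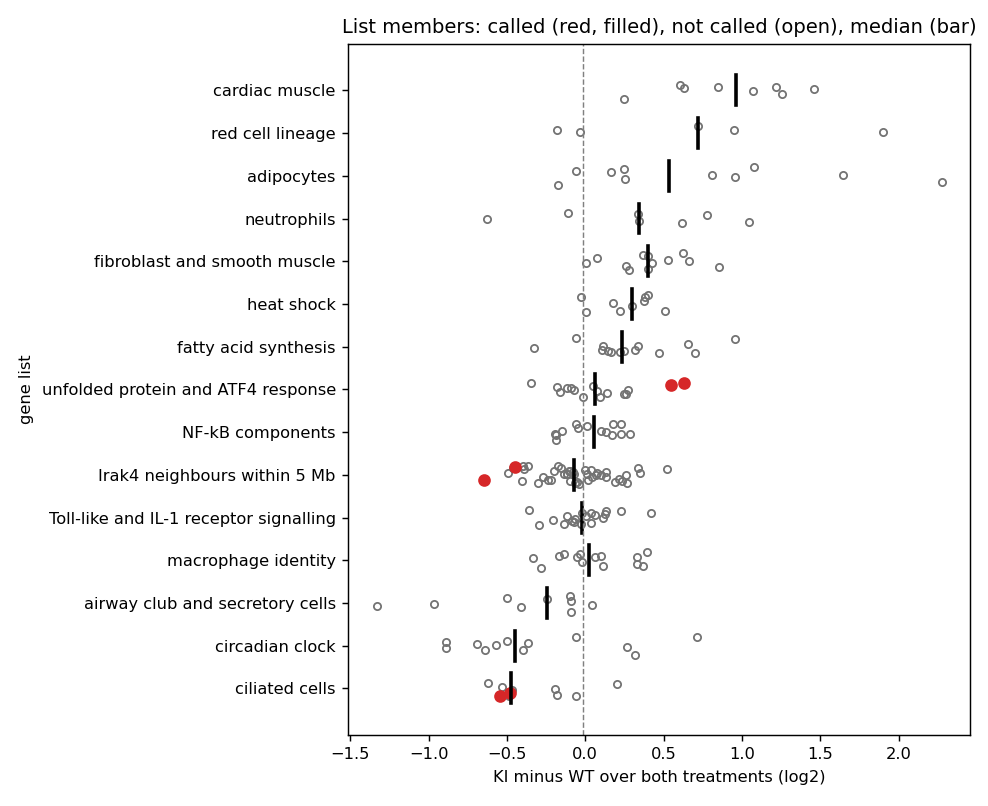
Log2 difference KI minus wild type over both treatments for the tested members of 15 gene lists, with called members filled in red, others open and a bar at each list's median. The dashed line is the median of all items, -0.02. Ciliated cell genes lie mostly left of it with 2 called, the unfolded protein list has 2 called to the right, and the widely spread cardiac, red cell and adipocyte lists hold no called member.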

How the data were processed

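The deposited value table holds linear intensity values, made by the authors in BeadStudio. The submitters' processing notes name that program without a version. Negative values and near equal sorted columns (apart by at most 1.4 units) show background subtraction and quantile normalization, as inferred from the values. Its column medians are 23.7 or 23.8. A second table was left out because none of its 16 per-sample columns carries a name found in the labels. The sources give no slide or scan date, and no batch was fitted.

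Intensities were corrected with normexp (offset 16) and log2 transformed. Noise, 12.2 units, was the root of the mean squared negative value. A probe was kept if it exceeded 3 times noise on 2 or more arrays, which left 11819 of 24613. Symbols came from the platform annotation of the probe identifiers, which belongs to another platform than the chip in the labels: 1 symbol for 20984 probes, several for 1 and none for 3628. The brightest probe stood for a gene. limma 3.58.1 (R 4.3.3) fitted genotype and treatment to the 8 arrays (5 residual degrees of freedom), and 4 group means for single treatments, with eBayes and Benjamini-Hochberg adjustment over 10187 items. Folds are on this log2 scale and are understated for dim probes because of the offset. Where no array of a genotype was above noise, "at least" gives the ratio to a floor, set on each array at the dimmest probe above noise or at the probe itself if brighter. The number of arrays limits the precision. The fit was tested on simulated data. Alternatives are given in the closing section, and plots were drawn with matplotlib.

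The members and lists were chosen with earlier results of these data known. Named genes are the 15 largest rises and 15 largest falls with a symbol, the called members of each list (up to 4, or up to 8 near Irak4) or otherwise the 2 of smallest p. Names beyond these (S100a8, Col3a1, Tm7sf3, Baiap2l1 and the other items called in 1 treatment or in the change with treatment, Pdpk1, Flot2, Dynlrb2, Tekt4, Tekt1, Foxj1, Myd88, Traf6, Tlr4, Mapk14, Ddx58, Uqcr11, Serpinh1, Nqo1, Hmox1, Dnajc3, Canx, Pdia6, Hsp90b1) were chosen after their values were seen.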

Additional observations from a re-analysis of the deposited data

Results flagged for a closer look

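Within each genotype, the 4 arrays of every named gene were checked for an array whose gap to the next, divided by the range, exceeded Dixon's critical value for 4 samples. Of 196 such groups 11 did, against 9.80 expected by chance at 1 in 20. acLDL KI replicate 2 was the outlying array in 4, acLDL wild type replicate 2 in 3, untreated KI replicate 2 in 2, and acLDL wild type replicate 1 and untreated KI replicate 1 in 1 each. Groups here join both treatments, so a treatment effect can add to a gap. Among genes that differed in both treatments, untreated KI replicate 2 was low for Zbtb16 (5.69 against 5.99 to 6.03, gap ratio 0.865). No KI array was above noise for Zbtb16, so that gap lies between readings below noise. Also among these genes, acLDL KI replicate 2 was high for Gatad2a (9.16 against 8.24 to 8.40, 0.8294). acLDL wild type replicate 2 was low for Nfic (9.73 against 10.45 to 10.60, 0.832) and acLDL wild type replicate 1 was high for Ralgapa2 (8.60 against 8.01 to 8.10, 0.846).

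Bpifb1, a secreted protein of airway epithelium, was low in acLDL wild type replicate 2 (9.08 against 12.58 to 12.81, 0.940) and in acLDL KI replicate 2 (7.87 against 11.16 to 11.41, 0.928). Emcn, an endothelial sialomucin, was high in acLDL wild type replicate 2 (11.69 against 11.40 to 11.45, 0.830). Mb, myoglobin, was high in untreated KI replicate 2 (9.66 against 8.05 to 8.26, 0.869). acLDL KI replicate 2 was low for Actc1, cardiac actin (10.50 against 11.26 to 11.38, 0.857), and for the clock output gene Tef (11.34 against 12.54 to 12.72, 0.867). Ahsa1, a co-chaperone of HSP90, was low in untreated KI replicate 1 (10.17 against 10.46 to 10.49, 0.912).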

How the results depend on the processing

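All members tested (365, or 323 among items above noise on all 8 arrays) kept their direction and an unadjusted p under 0.05 under the 22 alternatives run. Their choice, at an unadjusted p of at most 0.00179 on these same arrays, largely fixes this, so it is no sign of stability. The count of 365 over both treatments became 0 without background correction (2490 items at an unadjusted limma p under 0.05) and 0 without a filter (3013), 548 with an offset of 50, 636 among items above noise on all 8 arrays, 594 with an intensity trend and 119 without the treatment covariate. The count of genes that differ in both treatments was 0, 0, 544, 625, 589 and 119 in these settings. The count over both treatments lay between 300 and 466 with median centring, cyclic loess, quantile normalization, every probe on its own, group means or array weights, and the share of lower calls moved from 63.8% to between 57.0% and 64.3%. Leaving out 1 array gave between 0 and 550 in either count, with 1867 to 2674 items at an unadjusted p under 0.05. The acLDL comparison, 22 as reported, gave 5 without background correction, 8 without a filter, 53 with an offset of 50, 61 above noise on all 8 arrays, 59 with a trend and between 4 and 16 on leaving out 1 array. The untreated comparison, 1 as reported, gave 0 without background correction, 0 without a filter and between 0 and 1 on leaving out 1 array. The change with treatment, 5 as reported, gave 2, 3 and between 1 and 4. The cause of these moves was not tested, beyond the number of items and arrays that a setting leaves.

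Replicate numbers are shared by the groups, but the labels do not say that they pair samples. Deviations of same-numbered arrays correlated between -0.31 and 0.29 over the 6 pairs of groups. With the replicate block over all arrays 378 items were called, and with the replicate block within treatment 2 (Cyp26b1 and Bpifb1, 0 of them among the 365, and 0 ordered in both treatments), with 2514 at an unadjusted p under 0.05. Among named genes with no call, leaving out 1 array turned the sign of Cav1 without acLDL KI replicate 2 (range over the 8 fits -0.0074 to 0.147), of Kdm5d without untreated wild type replicate 2 (-0.0052 to 0.320) and of Eif2s3y without untreated wild type replicate 1 or untreated KI replicate 2 (-0.137 to 0.043, and 0.018 in the second of these). All other genes that the naming rule picked kept their direction in every setting where they were tested.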

Other observations

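The remaining lists gave 0 calls among their tested members over both treatments and are listed by their median log2 difference over both. Alveolar type II genes lay at 0.03 over 12 genes, alveolar type I genes at 0.06 over 4 and endothelial genes at 0.09 over 11. Neutrophil genes had a median of 0.34 over 7 (0.15 in untreated and 0.77 in acLDL arrays), with 5 above and 2 below 0. Mpo, Elane, Ngp, Cxcr2, Mmp8 and Prtn3 of that list were above noise on no array. Camp, an antimicrobial peptide, had 0.62 (SE 0.16, limma adjusted p = 0.0605) and the calprotectin gene S100a9 0.78 (SE 0.23, limma adjusted p = 0.0863). For S100a9 the genotypes overlapped in the untreated arrays (difference 0.15). Its difference of 1.41 in the acLDL arrays was a call there (limma adjusted p = 0.0154). Lymphocyte genes lay at 0.02 over 9, class II and dendritic cell genes at 0.10 over 9 and class I genes at -0.06 over 13. Skeletal muscle genes lay at 0.10 over 11.

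Fatty acid synthesis genes were above 0 for 12 of 14 members, at a median of 0.24, with Fasn, the fatty acid synthase, at 0.47 (SE 0.13, limma adjusted p = 0.0710) and Gpam, an acyltransferase of triglyceride synthesis, at 0.34 (SE 0.09, limma adjusted p = 0.0728). LXR targets lay at 0.11 over 7, scavenger receptor and lipid storage genes at 0.00135 over 13 and xenobiotic metabolism genes at 0.05 over 15. Cell cycle genes were above 0 for 11 of 11 members at a median of 0.12, interferon-stimulated genes for 9 of 11 at 0.18 and respiratory chain genes for 10 of 14 at 0.09. Of all items, 46.6% were above 0. The interferon-stimulated median was -0.04 in untreated and 0.34 in acLDL arrays. Calls of genes outside the lists are not counted here. Among them were Ddx58, an interferon-induced gene (0.37, limma adjusted p = 0.0458), and Uqcr11, a respiratory chain gene (0.35, limma adjusted p = 0.0458). Immediate early genes lay at -0.07 over 16, with Junb, an AP-1 subunit, at -0.40 (SE 0.09, limma adjusted p = 0.0532), and ribosomal protein genes at -0.03 over 10.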
